A study of Mus musculus with 6 samples.

Results

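The genes described here are 31 genes of glycolysis, lactate transport, fructose bisphosphate control and the pentose phosphate pathway, out of 28564 genes in a mouse count table. They were taken by symbol from a fixed list and not by a rule on their measured values. Earlier results of these data were known when the list was chosen. Each was found in the table, and 30 of the 31 passed the filter on low counts and were tested. RNA was sequenced from epithelial cells of small-intestinal crypts, the pits at the base of the villi where stem cells, their dividing progeny and Paneth cells lie. The cells were single, live and positive for EpCAM, a surface protein of epithelia, and for CD44, a surface protein abundant in crypts. Cells with the endothelial protein CD31 or the leukocyte protein CD45 were gated out. Group 1 held 3 libraries from Apln-/- mice, which lack the gene for the secreted peptide apelin, and group 2 held 3 libraries from wild-type C57Bl/6 mice. All mice were males of 13 weeks. The labels say neither how the Apln allele was made nor whether the genotypes were littermates, and the comparison asks how crypt cells differ without apelin.

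Glycolysis splits glucose into pyruvate through a chain of cytosolic enzymes, and lactate dehydrogenase and the monocarboxylate carriers turn pyruvate into lactate and move it across the membrane. The pentose phosphate pathway branches off at glucose 6-phosphate, where its oxidative arm makes NADPH and its non-oxidative arm exchanges sugars between pentoses and glycolysis. Crypt cells divide fast and draw on both routes, while the enterocytes that they give rise to also make fructose-converting and gluconeogenic enzymes.

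The 6 libraries held 23046880 to 26513481 counts. Outside the 5 most abundant entries, the mitochondrial ribosomal RNAs among them, 5144725 to 5623112 counts were left per Apln knockout library and 6037237 to 7616648 per wild-type library. A count of 0 allows up to 3 counts, which is 0.0946 to 0.142 CPM (counts scaled to library size), for counting error only. Apln itself had 0 counts in each knockout library, against 29, 7 and 5 counts in the wild-type libraries. Of the marker lists for other cells, endothelial markers summed to 0.646 to 1.75 CPM in knockout libraries and 1.01 to 4.41 CPM in wild-type libraries. Immune markers summed to 4.06 to 5.68 CPM in knockout libraries and 3.72 to 10.4 CPM in wild-type libraries. Stroma markers summed to 10.1, 36.4 and 10.4 CPM in the knockout libraries and 31.1, 19.4 and 1.58 CPM in the wild-type libraries, with the smooth muscle genes Acta2, Myh11 and Des together at 2.30, 19.98 and 2.03 CPM in the knockout and 0.505 to 1.79 CPM in the wild type. Lists of cell types within the epithelium did not all match between the groups. Paneth markers summed to 1075 to 2557 CPM in knockout libraries and 644 to 1014 CPM in wild-type libraries. Lyz1 alone gave 633 to 1577 CPM in knockout libraries and 384 to 588 CPM in wild-type libraries. Mptx2 also lay higher in every knockout library, while the groups overlapped in Defa17, Defa24, Mmp7, Ang4 and Itln1. For the 8 proliferation markers, the sum of 446 to 513 CPM in knockout libraries and 549.7 to 654 CPM in wild-type libraries came apart only with Mki67 in it. Mki67 had 168 to 234 CPM in knockout libraries and 312 to 404 CPM in wild-type libraries, while the other 7 summed to 244 to 281 CPM in knockout libraries and 237 to 259 CPM in wild-type libraries. Tuft markers summed to 26.8 to 65.7 CPM in knockout libraries and 77.2 to 106 CPM in wild-type libraries, goblet markers to 2315 to 2533 CPM in knockout libraries and 2517, 1545 and 5081 CPM in wild-type libraries, and enteroendocrine markers to 594 to 745 CPM in knockout libraries and 854 to 1321 CPM in wild-type libraries. Within the tuft list, Dclk1, Trpm5 and Pou2f3 lay lower in every knockout library, and the groups overlapped in Il25, Alox5ap, Ltc4s, Avil and Gnat3. Within the enteroendocrine list, Chga, Chgb and Tph1 lay lower in every knockout library, and the groups overlapped in Neurod1, Cck, Gip, Sct and Tac1. No marker of the 11 lists was at 0 in all libraries. The part of these lists in the results that follow was not tested, and in sorted bulk RNA fewer cells of a type and less RNA per cell cannot be told apart.

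None of the 30 tested genes passed the test. With the quasi-likelihood test of edgeR and p-values adjusted by Benjamini-Hochberg over all 15122 genes tested, 0 of the 30 had an adjusted p under 0.05, and the background share of called genes was 0.172%. At an unadjusted p under 0.05 there were 8 of the 30, 6 with higher and 2 with lower values in the knockout, where the background share over all genes was 15.2%. The DESeq2 Wald test called 2 of them, Taldo1 and Tpi1, where it called 3.84% of all genes, and limma-voom called 0, where it called 0.37% of all genes. In 7 genes every knockout library lay above every wild-type library, a pattern that 11.3% of all tested genes had. In 2 genes every knockout library lay below every wild-type library, against 9.56% of all tested genes. The log2 fold change, knockout over wild type, was positive in 21 of the 30 genes and had a median of 0.21, beside a median of -0.01 and 49.5% positive values over all tested genes. Single values ran from -0.65 to 1.10, and adjusted p-values from 0.0911 to 0.966.

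**Figure D1:**
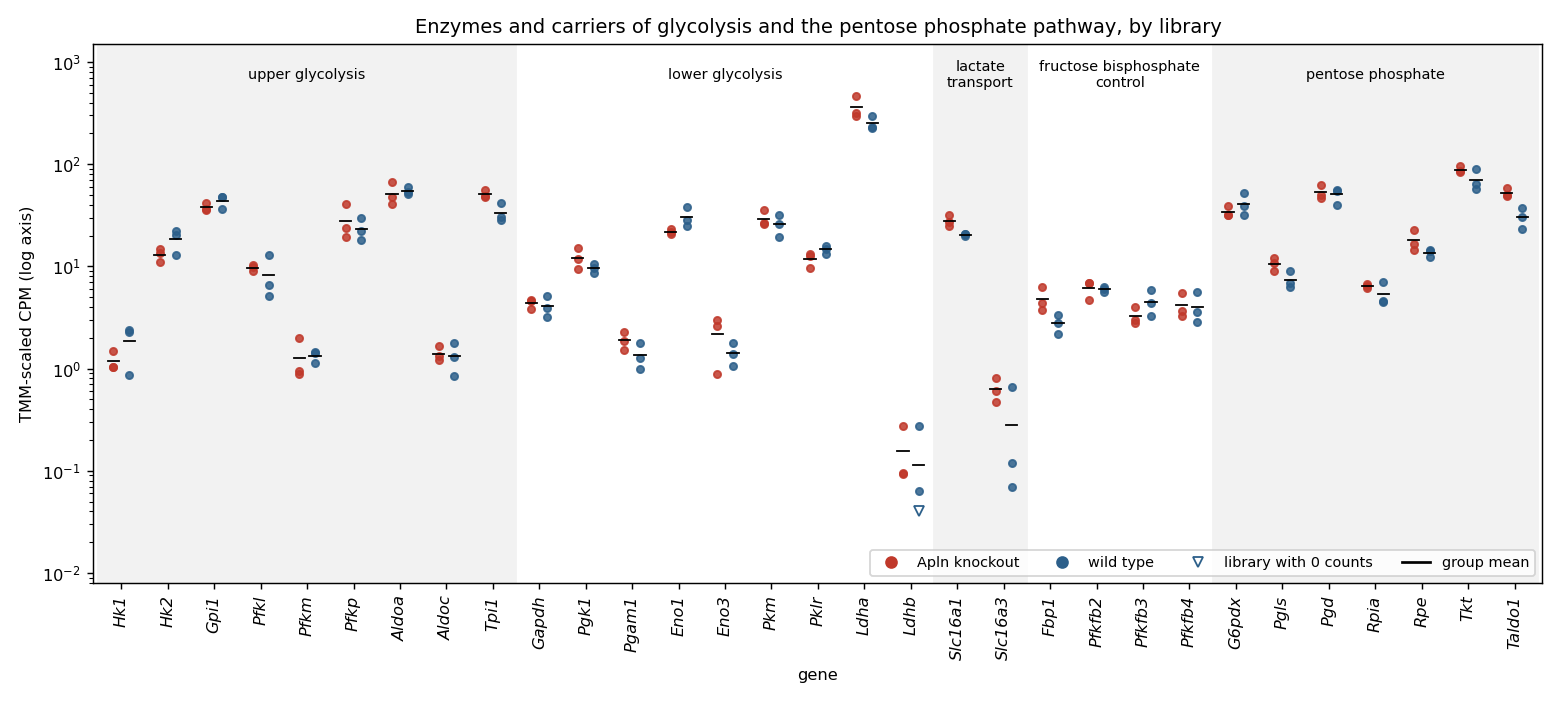
Level of each of the 31 genes in every library, as TMM-scaled CPM on a log axis, with Apln knockout libraries left of wild-type libraries and a black line at each group's mean. Ldha stands above the other genes in all 6 libraries, Ldhb and Slc16a3 lie lowest, and in most genes the points of the groups overlap.

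How far some of these levels can be read depends on copies of the genes. Enzymes of lower glycolysis are textbook sources of processed pseudogenes, copies of a spliced mRNA set back into the genome. In the GENCODE vM21 transcripts of mm10, 12 of the 31 genes had at least 1 annotated gene elsewhere in the genome with an aligned stretch of 300 or more bases at 90% identity or more, and 19 had none elsewhere. Of those 19, Pfkfb2 shares exon sequence with Gm29427, which overlaps it on the same strand. Pfkp, Pklr and Rpe overlap transcripts of Pitrm1, Hcn3 and Kansl1l that lie on the opposite strand. For Gapdh, Pgk1 and Pgam1, 100% of the 50-base stretches of the coding sequence also occurred in another gene elsewhere, so no read of that length from the coding part has a single place. The share was 83.3% in Eno1, 46.9% in Pkm, 35.6% in Ldhb, 32.4% in Gpi1, 31.1% in Ldha, 19.5% in Aldoa, 15.2% in Taldo1 and 13.7% in Tpi1. The sources used here do not give how reads with several places were counted, so the levels of these genes are uncertain, those of Gapdh, Pgk1, Pgam1 and Eno1 most of all.

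The 4 sets below print 60 coding bases of an enzyme and of its copies, with capitals for the bases of a copy that differ from the enzyme's. These copies were chosen for near identity and for their counts, so their likeness follows from that choice. The stretch printed is the first of those with the most differences, among coding stretches that align without gaps in all the copies shown. It is therefore not a typical stretch. The first is Gapdh (chr6:125161715-125166467, minus strand), at coding bases 394 to 453, with the pseudogenes Gm13292 (chr2:11409031-11410030, minus strand), Gm4518 (chr17:61780915-61781632, minus strand) and Gm29667 (chr1:100282791-100283280, plus strand):
Gapdh: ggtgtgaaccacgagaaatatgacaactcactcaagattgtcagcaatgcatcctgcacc
Gm13292: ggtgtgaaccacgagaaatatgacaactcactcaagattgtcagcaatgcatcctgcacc
Gm4518: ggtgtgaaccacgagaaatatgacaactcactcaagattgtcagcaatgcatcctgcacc
Gm29667: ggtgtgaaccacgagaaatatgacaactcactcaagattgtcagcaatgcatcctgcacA
The second is Pgam1 (chr19:41911923-41918660, plus strand), at coding bases 1 to 60, with Pgam1-ps2 (chr7:27469771-27470535, minus strand):
Pgam1: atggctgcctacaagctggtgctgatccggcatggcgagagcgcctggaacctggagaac
Pgam1-ps2: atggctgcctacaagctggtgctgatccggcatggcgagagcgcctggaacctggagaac
The third is Eno1 (chr4:150236721-150248879, plus strand), at coding bases 1174 to 1233, with Gm4735 (chr2:80837141-80838442, plus strand):
Eno1: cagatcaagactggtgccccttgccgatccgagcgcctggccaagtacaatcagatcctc
Gm4735: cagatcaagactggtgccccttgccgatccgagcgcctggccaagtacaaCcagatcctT
The fourth is Gpi1 (chr7:34201330-34230336, minus strand), at coding bases 169 to 228, with Gm1840 (chr8:5639580-5641011, plus strand):
Gpi1: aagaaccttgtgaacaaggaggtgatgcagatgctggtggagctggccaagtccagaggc
Gm1840: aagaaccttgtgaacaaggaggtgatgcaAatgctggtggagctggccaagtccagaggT
Over the aligned coding bases, Pgam1-ps2 was identical to Pgam1 at 762 of 762 bases, Gm4735 to Eno1 at 1297 of 1302, Gm13292 to Gapdh at 993 of 998, and Gm1840 to Gpi1 at 1409 of 1429. Ldhb and its copy Gm5514, which differ at 4 of 60 bases, were chosen likewise and are not printed. Other counted copies of Gapdh were less alike, with identities of 90.8% in Peli2, 92.9% in Gm11960, 90.1% in Gm26931 and 92.4% in 3000002C10Rik.

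**Figure D2:**
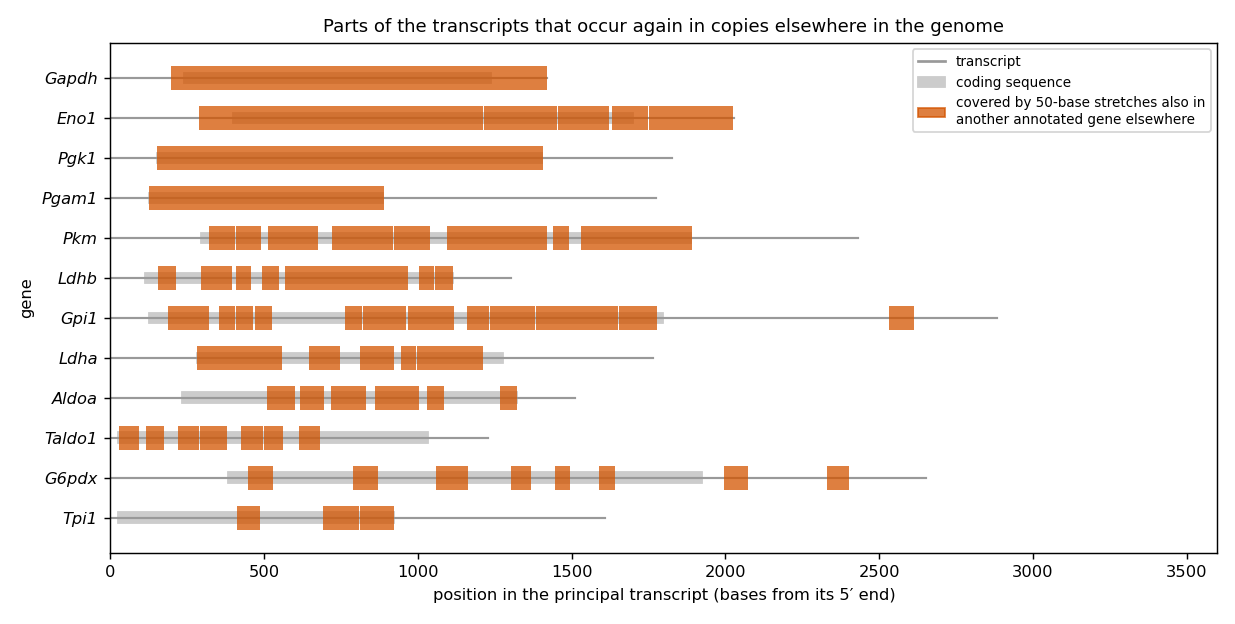
Principal transcripts of the 12 genes with copies elsewhere, drawn from the 5′ end in bases (line, transcript; grey, coding sequence; orange, parts covered by 50-base stretches that also occur in another gene elsewhere). The coding parts of Gapdh, Pgk1 and Pgam1 are covered throughout, while Tpi1, G6pdx and Taldo1 are covered in pieces.

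Upper glycolysis, the steps that use ATP to prepare and cleave the sugar, was described by 9 genes. Their log2 fold changes had a median of -0.08, with 4 of the 9 positive. Summed over the 9 genes, the knockout libraries held 169, 222 and 192 CPM, against 162, 197 and 202 CPM in the wild-type libraries, and these sums overlapped.

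Hexokinase traps glucose in the cell as glucose 6-phosphate, and Hk2 is its growth-linked form. Hk2 had 13.5, 11.1 and 14.7 CPM in the knockout libraries, against 12.9, 20.1 and 22.2 CPM in the wild-type libraries. Wild-type library 1 lay among the knockout libraries, and the other two wild-type libraries stood above them. The log2 fold change was -0.50 (SE 0.22, unadjusted p = 0.0425, adjusted p = 0.309 by edgeR). Hk1, the housekeeping form, had 1.03, 1.48 and 1.04 CPM in knockout libraries and 2.30, 0.861 and 2.40 CPM in wild-type libraries, with the lowest and the highest library both wild type. Per kilobase of the longest transcript, Hk2 exceeded Hk1 in 6 of 6 libraries, by a ratio of group means of 8.57 in the knockout and 7.71 in the wild type. Hk3, a form known from blood cells, had 1 count over the knockout libraries and 7 over the wild-type libraries.

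Gpi1 turns glucose 6-phosphate into fructose 6-phosphate. It had 36.1, 35.3 and 41.7 CPM in the knockout libraries, against 36.8, 47.6 and 47.3 CPM in the wild-type libraries, with a log2 fold change of -0.22 (SE 0.16). Its copy Gm1840 held 1219 counts beside 6229 for Gpi1, and with both added the log2 fold change was -0.21.

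Phosphofructokinase makes fructose 1,6-bisphosphate, the committed step of glycolysis, and its subunits are coded by Pfkl, Pfkm and Pfkp, named after liver, muscle and platelet. Pfkp had 19.2, 40.6 and 23.9 CPM in knockout libraries and 17.97, 22.4 and 29.9 CPM in wild-type libraries, and knockout library 2 alone stood high. Without that library its log2 fold change of 0.25 (SE 0.26) became -0.12. Pfkl had 9.004, 9.78 and 10.2 CPM in knockout libraries and 6.63, 12.9 and 5.08 CPM in wild-type libraries, which spread wider than the knockout libraries and enclosed them. Pfkm averaged 1.27 ± 0.623 CPM in the knockout and 1.34 ± 0.179 CPM in the wild type (SD, n = 3 each). Per kilobase of the longest transcript, Pfkp and Pfkl each exceeded Pfkm in 6 of 6 libraries, and Pfkp exceeded Pfkl in 4 of 6 (6 of 6 by the principal transcript, whose length is 4145 bases in place of 8681).

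Aldolase splits the bisphosphate into a pair of triose phosphates. Aldoa, the widespread form, had 40.5, 66.2 and 47.8 CPM in knockout libraries and 53.8, 60.2 and 51.1 CPM in wild-type libraries, overlapping, with a log2 fold change of -0.10 (SE 0.18). Aldoc, known from brain, averaged 1.404 ± 0.225 CPM in the knockout and 1.32 ± 0.467 CPM in the wild type (SD, n = 3 each). Per kilobase, Aldoa exceeded Aldoc in 6 of 6 libraries.

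Tpi1 (triose-phosphate isomerase, ENSMUSG00000023456, chr6:124810586-124814296) interconverts the triose phosphates so that both can go on to pyruvate. It had 48.0, 55.5 and 49.2 CPM in the knockout libraries, against 28.7, 30.1 and 41.9 CPM in the wild-type libraries. The groups did not overlap, and wild-type library 3 came nearest to the knockout. Its log2 fold change of 0.60 (SE 0.17, 95% interval 0.23 to 0.97), a fold of 1.52, had an unadjusted p of 0.00418 and an adjusted p of 0.135 in edgeR, the second lowest of the 30. Of the 16 alternatives, 3 called Tpi1: the DESeq2 Wald test (3.84% of all genes called), no filter (2.2% of all genes called) and leaving out wild-type library 3 (2.27% of all genes called).

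Lower glycolysis, from glyceraldehyde 3-phosphate to pyruvate and lactate, comprised 9 genes, of which 8 were tested. The 8 log2 fold changes had a median of 0.26, with 6 positive. Summed over the 9 genes, the knockout libraries held 377, 563 and 393 CPM, against 299, 389 and 326 CPM in the wild-type libraries, most of it Ldha. Knockout library 2 had the highest sum, and wild-type library 2 overlapped the knockout range.

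Ldha (ENSMUSG00000063229, chr7:46841475-46855627), the lactate dehydrogenase subunit that favours lactate formation, had the highest level of the 31 genes. Its values were 299, 469 and 315 CPM in the knockout libraries, against 226, 294 and 232 CPM in the wild-type libraries. Each knockout library stood above each wild-type library, but knockout library 1 and wild-type library 2 almost met. Its log2 fold change was 0.53 (SE 0.19, 95% interval 0.10 to 0.95), with an unadjusted p of 0.0185 and an adjusted p of 0.231 in edgeR. Per kilobase, Ldha averaged 199 ± 51.7 CPM in the knockout and 138 ± 20.5 CPM in the wild type (SD, n = 3 each). Next per kilobase came Taldo1 with 38.6 ± 4.16 CPM in the knockout and 22.4 ± 5.22 CPM in the wild type, and Aldoa with 33.3 ± 8.55 CPM in the knockout and 35.5 ± 2.99 CPM in the wild type, so that Taldo1 led Aldoa in the knockout, within their spread, and Aldoa led Taldo1 in the wild type. Ldhb, the subunit of oxidative tissues such as heart, had 2, 6 and 2 counts in the knockout libraries and 0, 8 and 2 counts in the wild-type libraries, 10 in each group, and was too low to test; its copy Gm5514 had 2 counts in the knockout and 0 in the wild type. Ldhc, known from testis, had 10 counts in the knockout and 3 in the wild type.

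Eno1 (ENSMUSG00000063524), the widespread enolase, which makes phosphoenolpyruvate, had the lowest p of the genes with a negative fold change. It had 21.6, 23.3 and 20.5 CPM in the knockout libraries, against 24.8, 38.0 and 28.2 CPM in the wild-type libraries. All knockout libraries lay below all wild-type libraries, within a narrow range, while wild-type library 2 stood high. The log2 fold change was -0.48 (SE 0.18, 95% interval -0.87 to -0.09), with an unadjusted p of 0.0204 and an adjusted p of 0.240 in edgeR. The copy Gm4735 held 171 counts in the knockout and 325 in the wild type, beside 1399 counts of Eno1 in the knockout and 2623 in the wild type. Its own log2 fold change was -0.48 (SE 0.38), and with both added the value was also -0.48. Eno3, the muscle form, had 3.00, 0.877 and 2.599 CPM in knockout libraries and 1.39, 1.07 and 1.80 CPM in wild-type libraries, with knockout library 2 lowest of all 6. Eno2, known from neurons and endocrine cells, had 7 counts in the knockout and 8 in the wild type.

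Gapdh oxidises glyceraldehyde 3-phosphate and makes NADH, and Pgk1 then makes the first ATP of the chain. Gapdh, often used as a reference transcript, had 4.60, 3.83 and 4.68 CPM in knockout libraries and 3.17, 3.93 and 5.11 CPM in wild-type libraries, and these overlapped. Its 90 copies in the table held 2222 counts beside 636 for Gapdh itself. Of these, 580 are the whole count of Peli2, a protein-coding gene with a Gapdh-like stretch in its exons. Further counts fell to pseudogenes: 198 to Gm29667, 197 to Gm29668, 165 to Gm13292, 151 to Gm11960, 136 to Gm26931, 128 to 3000002C10Rik and 92 to Gm4518. Gm26931 shares no 50-base stretch with Gapdh. The 86 pseudogenes that share a 50-base stretch with Gapdh held 1498 counts. With these added, the sums were 12.3, 15.1 and 14.4 CPM in knockout libraries and 12.5, 16.3 and 14.2 CPM in wild-type libraries. The log2 fold change of Gapdh was then -0.04 in place of 0.10. Pgk1 had 11.7, 15 and 9.45 CPM in knockout libraries and 9.56, 10.4 and 8.71 CPM in wild-type libraries, overlapping, with a log2 fold change of 0.33 (SE 0.21). Pgam1, phosphoglycerate mutase, had 1.88, 2.26 and 1.51 CPM in knockout libraries and 0.992, 1.27 and 1.77 CPM in wild-type libraries. Its fully identical copy Pgam1-ps2 held 232 counts beside 239, and the log2 fold change was 0.48 (SE 0.44) for Pgam1 alone and 0.30 (SE 0.30) with both added. Pgam2, the muscle form, had 6, 5 and 8 counts in knockout libraries and 29, 14 and 24 counts in wild-type libraries. These groups did not overlap, and the log2 fold change of -1.41 (SE 0.67) had an adjusted p of 0.348 in edgeR.

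Pyruvate kinase makes pyruvate and ATP, and is coded by Pkm, whose splice forms M1 and M2 a count per gene cannot separate, and by Pklr, the form of liver, red cells and gut. Pkm had 25.9, 35.6 and 26.5 CPM in knockout libraries and 19.6, 25.8 and 31.9 CPM in wild-type libraries, overlapping, with a log2 fold change of 0.19 (SE 0.20). Pklr had 9.66, 13.1 and 12.5 CPM in knockout libraries and 13.3, 14.9 and 15.8 CPM in wild-type libraries. Its groups did not overlap, although knockout library 2 and wild-type library 1 nearly touched, and its log2 fold change was -0.32 (SE 0.19, adjusted p = 0.460 by edgeR). In Pklr's principal transcript of 2902 bases, 23.2% of the 50-base stretches also lie in Hcn3, an overlapping neighbour on the opposite strand. The strand setting of the counting is not given, so part of the Pklr count may be shared with Hcn3.

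The balance of the isoenzyme genes was then compared as shares of their summed CPM per kilobase in each library. The clearest contrast was the Pklr share beside Pkm, at 23.8%, 23.6% and 28.4% in the knockout libraries, against 36.3%, 32.6% and 29.4% in the wild-type libraries. The means were 25.2 ± 2.71% in the knockout and 32.8 ± 3.50% in the wild type (SD, n = 3 each), a difference of -7.55 percentage points, with no overlap. A two-sided exact permutation test gave p = 0.1, the smallest that 3 against 3 allows, and 0.7 after Benjamini-Hochberg adjustment over the 7 shares. The other 6 shares overlapped, with exact permutation p-values from 0.3 to 1. Hk2 made up 89.3 ± 3.46% of the hexokinase pair in the knockout and 88.0 ± 6.74% in the wild type. Pfkp made up 50.2 ± 9.77% of the phosphofructokinase set in the knockout and 50.9 ± 12.8% in the wild type. These shares rest on its longest transcript of 8681 bases, and would be larger by its principal transcript of 4145 bases. By the latter, Pfkp averaged 6.73 CPM per kilobase in the knockout and 5.65 in the wild type. Pfkl averaged 2.59 in the knockout and 2.20 in the wild type. Ldhb made up 0.0558 ± 0.0228% of the lactate dehydrogenase pair in the knockout and 0.0561 ± 0.0671% in the wild type, so both groups read almost wholly as Ldha.

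**Figure D3:**
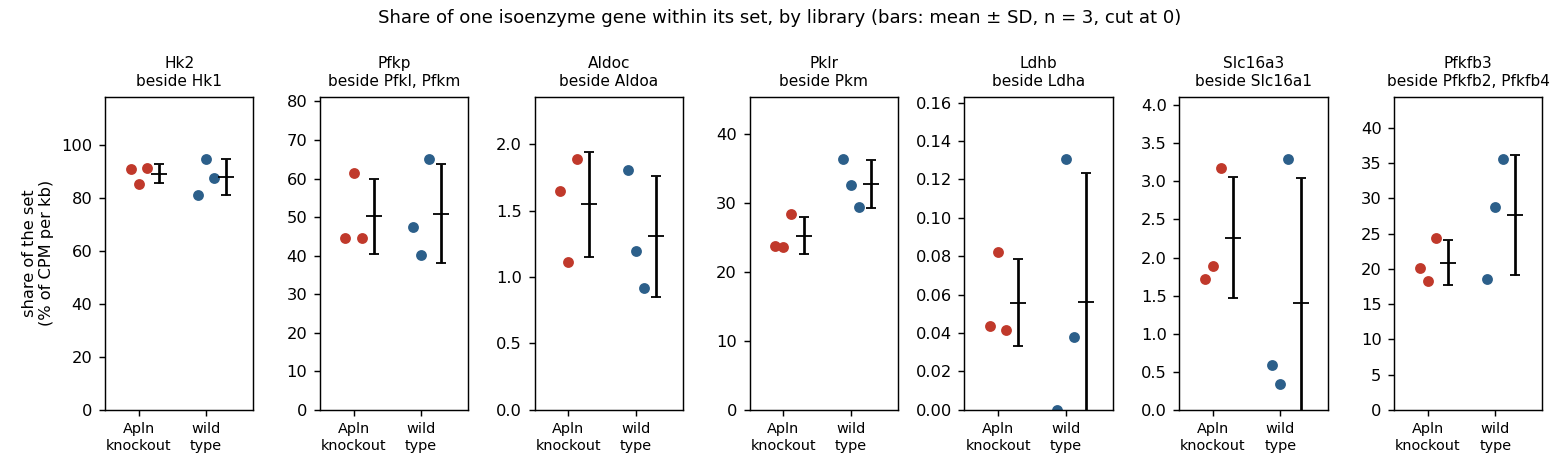
Share of 1 gene in the summed CPM per kilobase of its isoenzyme set, in percent, per library (points), with mean ± SD beside them (n = 3 per group) and Apln knockout left of wild type. The Pklr share is the panel in which the groups do not overlap, 23.6% to 28.4% in the knockout and 29.4% to 36.3% in the wild type.

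Lactate and pyruvate cross the plasma membrane through Slc16a1 and Slc16a3. Slc16a1 (MCT1, ENSMUSG00000032902, chr3:104638668-104658462) had 27.3, 31.8 and 25.1 CPM in the knockout libraries, against 20.7, 20.8 and 19.9 CPM in the wild-type libraries. The wild-type libraries were nearly level, with an SD of 0.525 CPM, and every knockout library lay above them. A log2 fold change of 0.46 (SE 0.16, 95% interval 0.12 to 0.79) had an unadjusted p of 0.0125 and an adjusted p of 0.202 in edgeR. Slc16a3 (MCT4), the exporter of strongly glycolytic cells, was low, with 10, 13 and 17 counts in knockout libraries and 3, 2 and 21 counts in wild-type libraries. Wild-type library 3 held most of the counts of its group, so the log2 fold change of 1.10 had an SE of 0.84 and ranged from 0.63 to 2.68 when single libraries were left out.

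Fructose bisphosphate is set by the phosphofructokinase and phosphatase reactions and by fructose 2,6-bisphosphate, a signal that the Pfkfb enzymes make and remove. Fbp1 (ENSMUSG00000069805, chr13:62864753-62888282), a fructose 1,6-bisphosphatase that runs the step backwards, had 6.33, 3.74 and 4.35 CPM in knockout libraries and 3.37, 2.17 and 2.77 CPM in wild-type libraries. The groups did not overlap, with knockout library 2 and wild-type library 1 close to each other. A log2 fold change of 0.79 (SE 0.32, 95% interval 0.10 to 1.48) had an adjusted p of 0.261 in edgeR. Its neighbour Fbp2 (chr13:62836877-62858422), the muscle form in textbooks, was the leading gene of the pair here, with ratios per kilobase of 7.398 in the knockout and 8.52 in the wild type. Fbp2 had 32.5, 32.5 and 32.6 CPM in the knockout libraries, against 21.7, 20.3 and 22.9 CPM in the wild-type libraries, and both groups were tight. Its log2 fold change of 0.59 (SE 0.14) had an unadjusted p of 0.00136 and an adjusted p of 0.0971 in edgeR.

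The Pfkfb genes were low and overlapped. Pfkfb2 had 6.85, 4.71 and 6.95 CPM in knockout libraries and 6.03, 5.58 and 6.31 CPM in wild-type libraries. Pfkfb3, the form with the strongest kinase activity, had 2.95, 2.82 and 4.02 CPM in knockout libraries and 3.25, 4.41 and 5.87 CPM in wild-type libraries, with a log2 fold change of -0.47 (SE 0.31). Pfkfb4 had 3.24, 5.54 and 3.69 CPM in knockout libraries and 5.67, 3.58 and 2.84 CPM in wild-type libraries, so that the highest and the lowest library were both wild type.

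The pentose phosphate pathway gave 7 genes, all tested, with a median log2 fold change of 0.33 and 6 of the 7 positive. Summed over them, the knockout libraries held 259.7, 285 and 246 CPM, against 192, 218 and 246 CPM in the wild-type libraries. Knockout library 3 and wild-type library 3 were level, and the other wild-type libraries lay lower.

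In the non-oxidative arm, Taldo1 (transaldolase, ENSMUSG00000025503, chr7:141392199-141402968) moves 3-carbon units between sugar phosphates. It had 59.0, 48.4 and 50.2 CPM in the knockout libraries, against 30.4, 23.4 and 37.6 CPM in the wild-type libraries. The lowest knockout library stood well above the highest wild-type library. The log2 fold change of 0.78 (SE 0.18, 95% interval 0.39 to 1.18), a fold of 1.72, had an unadjusted p of 0.000977 and the lowest adjusted p of the 30, 0.0911 in edgeR. Taldo1, like Tpi1, was called by the DESeq2 Wald test, with no filter and without wild-type library 3. Unlike Tpi1, it was also called with the replicate block, where 173 genes were called over the whole table. Tkt, transketolase, which moves 2-carbon units, had 83.4, 95.9 and 85.4 CPM in knockout libraries and 57.0, 64.1 and 90.2 CPM in wild-type libraries. Wild-type library 3 lay inside the knockout range and the other wild-type libraries below it, with a log2 fold change of 0.33 (SE 0.18, adjusted p = 0.426 by edgeR). Rpe, the epimerase of ribulose 5-phosphate, had 16.7, 22.6 and 14.6 CPM in knockout libraries and 14.5, 12.4 and 14.0 CPM in wild-type libraries. The groups did not overlap, but knockout library 3 and wild-type library 1 were almost equal. Of the stretches of Rpe, 19.3% also lie in Kansl1l, which overlaps it on the opposite strand. Rpia, which isomerises the same pentose to ribose 5-phosphate, the sugar of nucleotides, had 6.10, 6.69 and 6.43 CPM in knockout libraries and 4.48, 4.61 and 6.97 CPM in wild-type libraries, again with wild-type library 3 apart.

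In the oxidative arm, G6pdx makes the first NADPH and controls entry into the pathway. It was the member of the pathway whose log2 fold change was below 0, at -0.25 (SE 0.19), with 32.1, 39.3 and 31.8 CPM in knockout libraries and 39.0, 51.7 and 31.8 CPM in wild-type libraries, which overlapped. Pgls, the lactonase of the next step, had 12.1, 9.09 and 10.8 CPM in knockout libraries and 6.23, 6.85 and 8.96 CPM in wild-type libraries. Its groups did not overlap by a small margin, and its log2 fold change was 0.53 (SE 0.22, unadjusted p = 0.0319, adjusted p = 0.276 by edgeR). Pgd, which makes the second NADPH, had 50.2, 63.1 and 46.6 CPM in knockout libraries and 40.1, 55.2 and 56.4 CPM in wild-type libraries, overlapping, with a log2 fold change of 0.08 (SE 0.18). The genes of the 3 oxidative steps gave values below 0, above 0 and near 0, and whether they differ from each other was not tested.

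**Figure D4:**
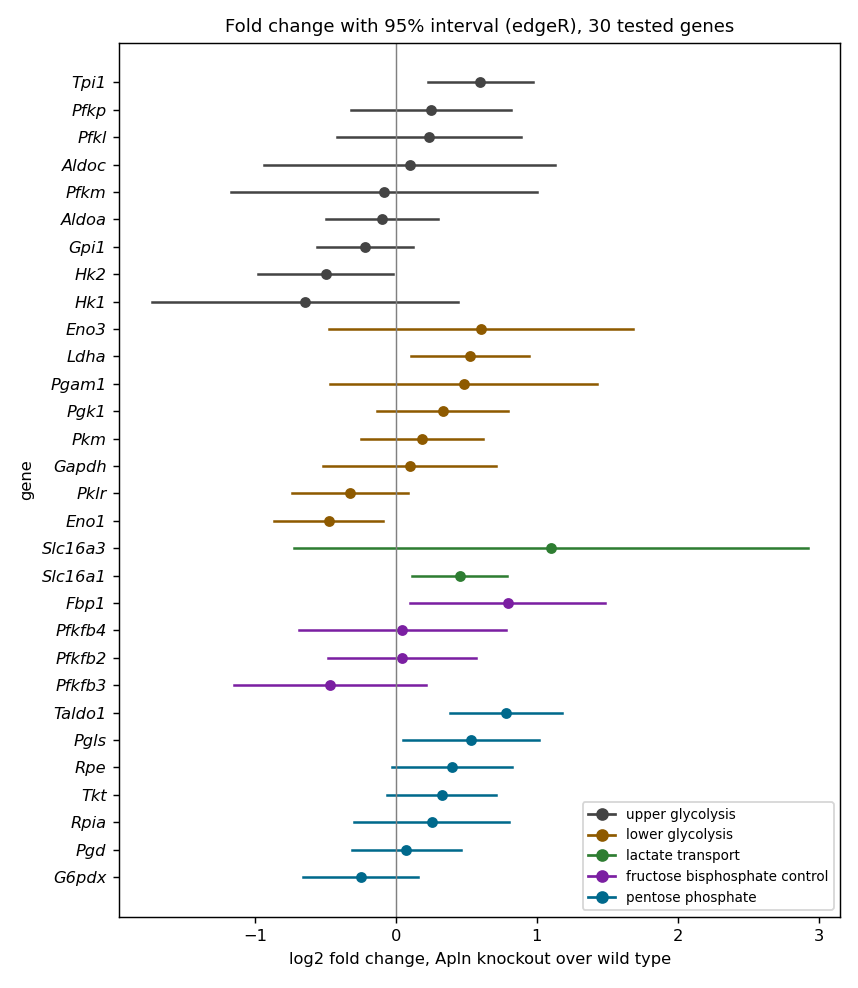
Log2 fold change of the 30 tested genes, Apln knockout over wild type, with its 95% interval from edgeR, grouped by role. Taldo1 at 0.78 and Tpi1 at 0.60 have intervals well above 0, and those of Ldha, Slc16a1, Fbp1 and Pgls lie above 0 more narrowly. The intervals of Eno1 at -0.48 and Hk2 at -0.50 lie below 0, and none of the 30 passed the adjusted threshold.

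Several of these patterns ran with single libraries. Knockout library 2 held the highest value of 11 of the 30 tested genes, and wild-type library 1 the lowest value of 10. The median log2 deviation (pseudocount 0.5 CPM) of the 30 genes from their mean over all libraries was 0.04, 0.19 and 0.07 in the knockout libraries, against -0.20, -0.11 and 0.10 in the wild-type libraries, so wild-type library 3 lay among the knockout libraries. Knockout library 2 was also the one with the high smooth muscle genes, and wild-type library 3 the one with the high goblet sum, and the part of these in the values was not tested. Without knockout library 2 the median log2 fold change of the 30 genes was 0.17. Without wild-type library 1 the median log2 fold change of the 30 genes was 0.11, and without wild-type library 3 it was 0.29. The count of genes called over the whole table moved more: 26 with all libraries, 358 without wild-type library 3 and at most 1 without any other.

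The fold change also ran with transcript length, over all genes and over these. Spearman's rho of the log2 fold change with the longest transcript was -0.26 over 15111 genes with a length and -0.41 over the 30, given as descriptions because genes share the same libraries. The 15 shorter genes, of median length 1825 bases, had a median log2 fold change of 0.40, and the 15 longer ones, of median length 3730 bases, 0.08. Taldo1 (1362 bases), Fbp1 (1479 bases), Tpi1 (1607 bases) and Ldha (1815 bases) are among the shorter ones. In a fit with a smooth trend in length and GC content taken out, the log2 fold change was 0.61 for Taldo1, 0.46 for Tpi1, 0.38 for Ldha, 0.61 for Fbp1, 0.45 for Slc16a1 and -0.48 for Eno1, and the median over the 30 was 0.20. None of the 30 was called there, where 1 gene was called over the whole table.

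**Figure D5:**
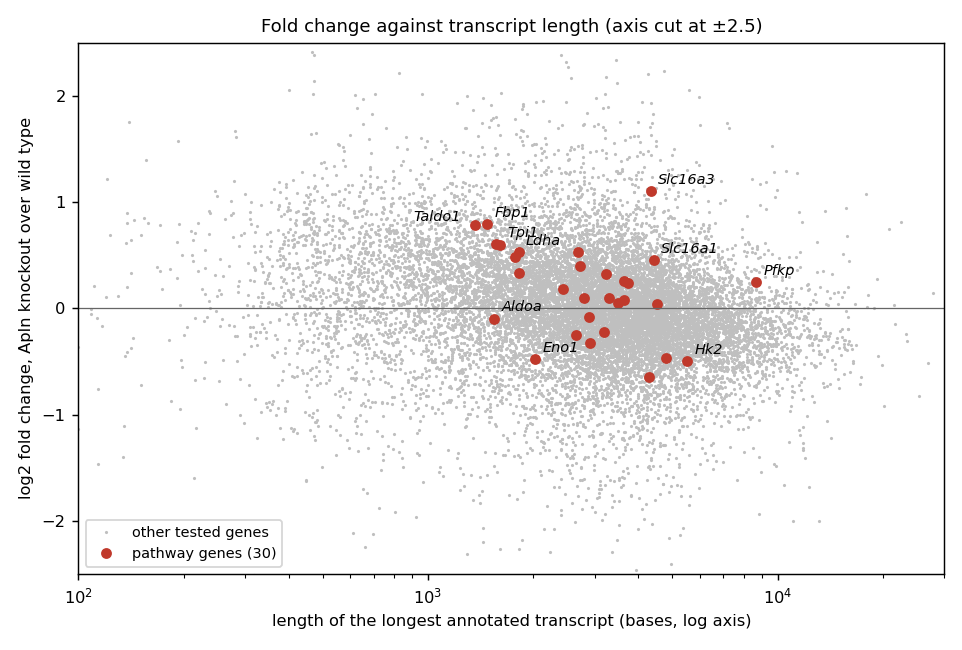
Log2 fold change, Apln knockout over wild type, against the length of the longest annotated transcript in bases (log axis), for the 30 tested pathway genes (large points) and the other tested genes (small points). Short genes such as Taldo1, Fbp1 and Tpi1 lie above 0, and Spearman's rho is -0.26 over all genes and -0.41 over the 30.

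The wider pathway was read from a list of 71 related genes (other isoenzymes, sugar carriers, pyruvate entry, gluconeogenesis, side branches and regulators), of which 69 were in the table and 59 were tested. None was called by edgeR, against 0.172% of all genes, and 13 had an unadjusted p under 0.05 (8 higher and 5 lower in the knockout), against 15.2% of all genes. DESeq2's Wald test called 3, against 3.84% of all genes, limma-voom called 0, against 0.37%, and the median log2 fold change was -0.04. In 10 of the 59 every knockout library lay above every wild-type library, against 11.3% of all tested genes. In 6 every knockout library lay below, against 9.56%. The lowest p of the 59 belonged to Khk, ketohexokinase, which starts fructose breakdown, and the next to Fbp2. Khk had 7.88, 8.03 and 6.29 CPM in knockout libraries and 3.81, 3.10 and 3.94 CPM in wild-type libraries, without overlap, at a log2 fold change of 1.03 (SE 0.25, unadjusted p = 0.00119, adjusted p = 0.0948 by edgeR). Pdk2, a kinase that switches off pyruvate dehydrogenase, had 9.38, 8.44 and 10.3 CPM in knockout libraries and 20.9, 33.6 and 9.08 CPM in wild-type libraries. Its log2 fold change was -1.17 (SE 0.35, adjusted p = 0.151), and wild-type library 3 lay inside the knockout range. The mitochondrial phosphoenolpyruvate carboxykinase Pck2 had 11.1, 9.09 and 10.2 CPM in knockout libraries and 7.26, 5.68 and 7.41 CPM in wild-type libraries, all knockout libraries being above. Gpd1, which draws glycolytic carbon into glycerol 3-phosphate, had 18.1, 24.3 and 18.3 CPM in knockout libraries and 27.8, 26.1 and 29.1 CPM in wild-type libraries, all knockout libraries being below. Arnt, the partner of the hypoxia-inducible factors, had 14.2, 17.3 and 15.2 CPM in knockout libraries and 19.0, 25.2 and 22.3 CPM in wild-type libraries, also without overlap, at an adjusted p of 0.199 in edgeR.

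The carriers that bring sugar into the cell were listed by name. Khk, Pdk2, Pck2, Gpd1 and Arnt were named for their low p in these data, so the carriers cannot be set against them. Slc5a1 (SGLT1), the sodium-glucose carrier of the brush border, averaged 52.7 ± 8.60 CPM in the knockout and 51.2 ± 4.88 CPM in the wild type (SD, n = 3 each). Slc2a1 (GLUT1), the basal glucose carrier, averaged 15.7 ± 1.57 CPM in the knockout and 18.2 ± 4.07 CPM in the wild type. Slc2a2 (GLUT2) averaged 0.998 ± 0.0780 CPM in the knockout and 0.934 ± 0.560 CPM in the wild type, and Slc2a5 (GLUT5), the fructose carrier, 1.27 ± 0.297 CPM in the knockout and 0.835 ± 0.385 CPM in the wild type. Pfkfb1, the liver form of the fructose 2,6-bisphosphate enzymes, averaged 1.14 ± 0.463 CPM in the knockout and 1.65 ± 0.837 CPM in the wild type. In all 5 of these genes the groups overlapped, as they did in 43 of the 59 related genes tested and in 11967 of all 15122 genes tested.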

How the data were processed

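Per the labels' protocols, total RNA isolated by the RNeasy Plus Micro kit was amplified by Ovation Pico WTA System V2 and made into libraries by the Nextera DNA Flex kit. The submitters' processing notes name STAR 2.6.1, HTSeq and the build mm10. The sources used here do not give the annotation release, the strand setting or the handling of reads with several places, so genes that overlap or lie antisense cannot be told apart in the counts.

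The deposited table holds raw counts per gene, whole numbers for 28564 Ensembl identifiers in 6 columns, each with its sample. GENCODE vM21 gave symbols to 28551 identifiers and left 13 without. Aldoa has a second identifier with 4 counts in the knockout and 39 in the wild type, and the identifier with more counts was used. Replicates are biological replicates per the labels. No pair of libraries of 1 group agreed within sampling noise.

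In R 4.3.3, edgeR 4.0.16 was run with filterByExpr (count minimum 10, total minimum 15), which left 15122 genes, TMM scaling, and glmQLFit with glmQLFTest over all 6 libraries without covariates. Benjamini-Hochberg adjustment ran over all genes tested, and genes under 0.05 were called at any fold. Levels are TMM-scaled CPM. The biological coefficient of variation came to 0.298. Shares of isoenzyme genes used CPM per kilobase of the longest transcript and exact permutation tests. Copies were found with blastn 2.17.0. The fit was tested on simulated data with known changes. Alternatives were DESeq2 1.42.0 size factors and Wald test, limma 3.58.1 voom, TMM without the 5 most abundant entries, no filter, at least 1 CPM in 3 libraries, a replicate block, a correction for length and GC content (splines with 5 degrees of freedom), both together, and each library left out. Adding pseudogene counts and the use of principal transcripts were chosen after seeing the data.

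The genes and lists were chosen with earlier results of these data known. All 31 pathway genes are named, with Apln as the targeted gene. Of the related genes, those with an adjusted p under 0.05 and the 6 of lowest p are named, with other isoenzymes and 4 sugar carriers that were listed by name. A few listed genes are not reported here. Copies are named where their counts come to at least 10% of those of their gene.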

Additional observations from a re-analysis of the deposited data

How the results depend on the processing

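The median log2 fold change of the 30 pathway genes stayed between 0.11 and 0.29 under all 16 alternatives tried. The count of genes changed over the whole table, 26, depended on the setting. It was 1 with DESeq2 size factors, 1 without the 5 most abundant entries, 629 with no filter, 117 with at least 1 CPM in 3 libraries, 581 by the DESeq2 Wald test, 56 by limma-voom, 1 after the length and GC correction, and 0 to 358 when single libraries were left out. With the replicate block it was 173, and with the block and the length and GC correction 16. Deviations of same-numbered libraries correlated at 0.066, 0.055 and 0.005, and those of differently numbered libraries at -0.065 to 0.006. Knockout library 3 had 0.005 with wild-type library 3 and 0.006 with wild-type library 1. All these values are small, and whether the replicate numbers mark pairs was not tested. The numbers come from the sample titles, and the knockout columns of the table are numbered otherwise (1, 3 and 4). Pathway genes called numbered 0 in the main analysis, 2 with no filter (Taldo1 and Tpi1), 2 by the DESeq2 Wald test, 1 with the replicate block (Taldo1, adjusted p = 0.0374), and 0 to 2 when single libraries were left out. The related genes called numbered 2 with no filter (Khk and Pdk2), 3 by the DESeq2 Wald test (Fbp2, Khk and Pdk2) and 0 to 1 when single libraries were left out. The cause of these moves was not tested.

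Some log2 fold changes near 0 turned their sign. That of Gapdh was -0.04 with its pseudogenes added and -0.062 to 0.302 when single libraries were left out. Leaving out single libraries also gave -0.56 to 0.13 for Pfkm, -0.314 to 0.054 for Aldoa, -0.044 to 0.211 for Pfkfb2, -0.12 to 0.47 for Pfkp, -0.21 to 0.36 for Pfkfb4, -0.079 to 0.168 for Pgd, -0.13 to 0.37 for Aldoc, -0.014 to 0.718 for Pfkl, -0.092 to 0.137 for Slc5a1 and -0.193 to 0.705 for Slc2a2. Share differences, knockout minus wild type, ran from -1.97 to 4.77 percentage points for Hk2, -6.28 to 6.43 for Pfkp and -0.0283 to 0.0369 for Ldhb. Among the pathway genes depth limits Ldhb and Slc16a3 most, at 20 and 66 counts in all, and among the related genes Hk3, Ldhc and Eno2 had 8, 13 and 15.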
